A study of Arabidopsis thaliana with 8 samples.

Results

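The shoot transcript profile of Arabidopsis plants given potassium iodide (KI) was set against that of plants given potassium bromide (KBr), 2 of the 8 arrays of the study. Both salts were supplied at 10 μM to Col-0 plants about 3 weeks old in hydroponics, and shoots were sampled 48 h later, so that the cation, the dose and the time were the same and only the halide differed. A disjoint pair of shoot arrays served as a check, plants given 10 μM sodium iodide (NaI) against control plants kept on the base nutrient solution. This second pair shares no array with the first, but it adds sodium together with iodide, and these cannot be told apart within it. Each sample was a pool of 3 plants on 1 ATH1 array, a chip with sets of short probes for Arabidopsis transcripts. There is thus no replicate check on any difference within these arrays, and no p-value is given. A ratio was computed where the signal, a linear intensity, reached 100 on both arrays, which held for 12927 (56.8%) of 22746 probe sets. It also held on all 4 shoot arrays for 12544, and 6959 (53.8%) of the 12927 carried a single gene name in the platform annotation.

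Iodine is not among the classical mineral nutrients of plants, whereas as iodide it is taken up by roots and carried to the leaves. Bromide is a neighbouring halide of the same charge, and it served as the salt in which potassium and dose were kept while iodide was absent. Leaves answer many chemical and biotic cues with defence transcripts such as chitinases and lectins, and they adjust metal-binding and redox proteins to the supply of metals and to oxidants.

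The shoot arrays had the profile of leaves, though only 1 of 12 listed leaf markers, RCA, had a probe set of its own. RCA, which encodes Rubisco activase, had signals of 36838 in KI, 30286 in KBr, 30943 in NaI and 34909 in control shoots, against 52.4 to 90.3 on the root arrays. The root gene PYK10, a beta-glucosidase of root ER bodies, read 249 in KI shoots and 327 in KBr shoots, and 168 in NaI shoots and 364 in control shoots, against 7129 to 10000.1 in roots. The other 4 root markers with a probe set of their own (of 12 listed), PER57, PER27, PER45 and NPF2.4, read 1.64 to 35.0 in shoots. PYK10 was thus detected in all 4 shoots at a low level, with both iodide shoots below both others, and its part in the results was not tested.

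Most shoot transcripts differed little between KI and KBr. The median log2 ratio of KI over KBr was 0.04 and the SD over probe sets 0.40, and 98.1% of probe sets were within a log2 ratio of 1, i.e., 2-fold. At least 2-fold higher in KI than in KBr were 159 probe sets (1.23% of the 12927), and 81 (0.627%) were at least 2-fold lower. Of these, 83 of the higher and 45 of the lower ones carried a single gene name. The balance of the directions depended on the scaling, since higher calls made up 66.2% of all calls on the deposited scale, 57.6% after median centring, 50.2% after quantile normalization and 45.8% after centring on a running median of similar signals.

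In the disjoint pair, 184 probe sets (1.47%) were at least 2-fold higher in NaI than in control shoots, and 71 (0.566%) were lower. Of the 143 probe sets higher in KI over KBr that could be read on all 4 arrays (1.14% of 12544), 51 were also 2-fold higher in NaI over control. They made up 35.7% of these 143, beside 1.47% of all probe sets higher in NaI over control. Of the 184 they were 27.7%, beside 1.14% of all higher in KI over KBr. As a share of all probe sets read on the 4 arrays, the 51 were 0.407%. Among the 80 lower ones (0.638%), 16 were lower in both pairs, which was 0.128% of all. These were 20.0% of the 80, beside 0.566% of all probe sets lower in NaI over control. Of the 71 they were 22.5%, beside 0.638% of all lower in KI over KBr. A difference in the same direction, whatever its size, was seen in NaI over control for 128 of the 143 higher probe sets (89.5%, against 54.0% of all probe sets above 0) and for 66 of the 80 lower ones (82.5%, against 46.0% of all below 0). A 2-fold difference in the opposite direction was found for 0 of the higher and 1 of the lower probe sets. Across the 12544 probe sets the log2 ratios of the 2 pairs had a Pearson r of 0.48, a description across genes, which are not independent replicates.

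**Figure D1:**
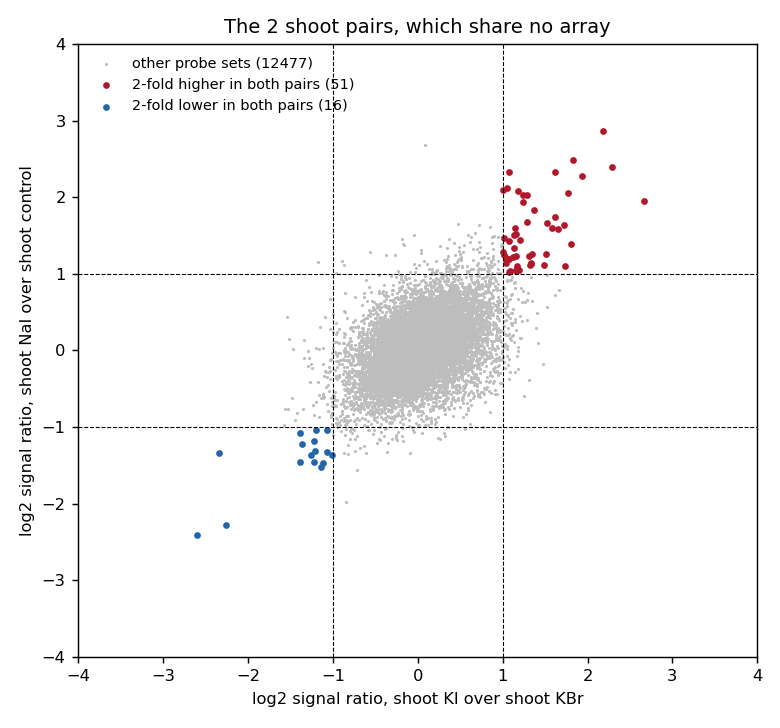
Each point is a probe set with a signal of at least 100 on the 4 shoot arrays, placed by its log2 ratio of KI over KBr (x axis) and of NaI over control (y axis), with dashed lines at 2-fold. The 51 red points at the upper right were 2-fold higher and the 16 blue points at the lower left 2-fold lower with iodide in both pairs.

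How often the second pair held the same difference varied with the brightness of the probe set. Among probe sets with a mean signal of 100 to 200 in KI and KBr, 2 of 33 higher ones (6.06%) were also 2-fold higher in NaI over control. The count was 19 of 64 (29.7%) between 200 and 500, 19 of 31 (61.3%) between 500 and 2000, and 11 of 15 (73.3%) from 2000 upwards. Lower probe sets followed the same order, with 0 of 12, 5 of 31 (16.1%), 8 of 32 (25.0%) and 3 of 5 in the same classes. The r between the pairs was 0.23 in the dimmest class and 0.73 in the brightest. Probe sets near the signal limit of 100 were therefore the ones whose 2-fold difference between KI and KBr was least often met again.

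**Figure D2:**
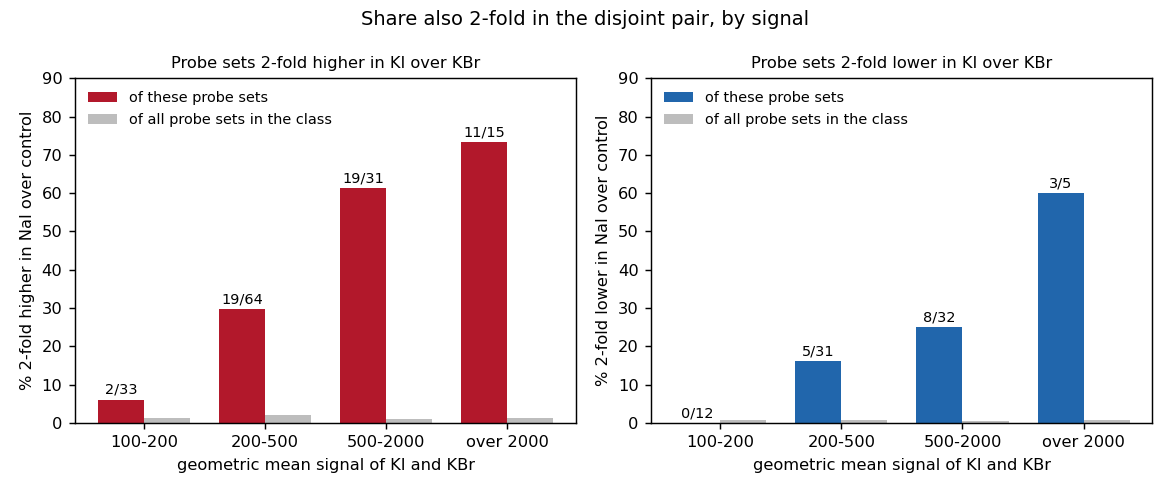
Coloured bars give, by class of geometric mean signal in KI and KBr, the percentage of probe sets 2-fold higher (left) or lower (right) in KI over KBr that were 2-fold in the same direction in NaI over control, with the counts above, and grey bars give the percentage among all probe sets of the class. The share among higher probe sets was 6.06% in the dimmest class and 73.3% in the brightest, while grey bars stayed under 2%.

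The 19 named genes higher with iodide in both pairs included genes of defence. CHI, annotated as a chitinase, an enzyme that cleaves the chitin of fungal walls, had a signal of 849.7 in KI against 278 in KBr shoots, and of 1234 in NaI against 245 in control shoots. Both iodide shoots were thus far above both shoots without iodide, by 3.06-fold for KI over KBr and by 5.04-fold for NaI over control. At2g43590, a neighbouring locus with no annotation used here, read 450.2 in KI and 137 in KBr shoots, and 470.4 in NaI and 152 in control shoots, or 3.30-fold and 3.10-fold. At5g18470, annotated as a curculin-like mannose-binding lectin, had 860.2 in KI against 392 in KBr shoots and 1229 in NaI against 433 in control shoots. The lectin difference was 2.20-fold in the potassium pair and 2.84-fold in the other.

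A member of the TRAF-like family, At3g28220, read 303 in KI and 146 in KBr shoots, and 607 in NaI and 139 in control shoots. Its difference was 2.07-fold in KI over KBr, close to the limit and under it after quantile normalization, and 4.36-fold in NaI over control, the NaI shoot being well above the KI shoot. At1g65500, annotated as a transmembrane protein, showed the reverse order of the iodide shoots, with 802 in KI against 242 in KBr and 479 in NaI against 224 in control shoots. SUFE2, a SufE-type protein that activates the cysteine desulfurase of iron-sulphur cluster assembly, had 491 in KI against 171 in KBr shoots and 548 in NaI against 173 in control shoots. For SUFE2 the KBr and control shoots were almost equal, and so were the folds, 2.87 and 3.16.

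Carbohydrate and transport genes were also in this group. APL3, a large subunit of ADP-glucose pyrophosphorylase in starch synthesis, had 913 in KI against 445 in KBr shoots and 905 in NaI against 392 in control shoots. AMY1, an alpha-amylase of starch breakdown, read 331 in KI against 164 in KBr shoots and 449 in NaI against 163 in control shoots, and its 2.02-fold in the first pair was the smallest among the named genes higher in both pairs and came under 2-fold after quantile normalization or median centring. For both genes the iodide shoots were above the shoots without iodide. At1g68570, the NPF3.1 transporter of the nitrate and peptide transporter family, had 1343 in KI against 596 in KBr shoots and 1365 in NaI against 638 in control shoots. CYP71B23, a cytochrome P450, had 585 in KI against 263 in KBr shoots and 762 in NaI against 373 in control shoots.

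Several bright genes of this group have no annotation in the sources used here. At5g55450 had 6908 in KI against 2775 in KBr shoots and 6973 in NaI against 2973 in control shoots. At5g42050 had 3332 in KI against 1326 in KBr shoots and 3673 in NaI against 1659.7 in control shoots. At1g80130 was 2.99-fold and 3.03-fold higher in the potassium and the sodium pair. In these 3 genes the iodide shoots agreed closely with each other, and the KBr shoot was near the control shoot. The remaining named genes were At4g14020, At1g64360, At4g34560, At1g66880, At1g10340 and CPUORF47, with folds between 2.11 and 2.37 in KI over KBr.

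**Figure D3:**
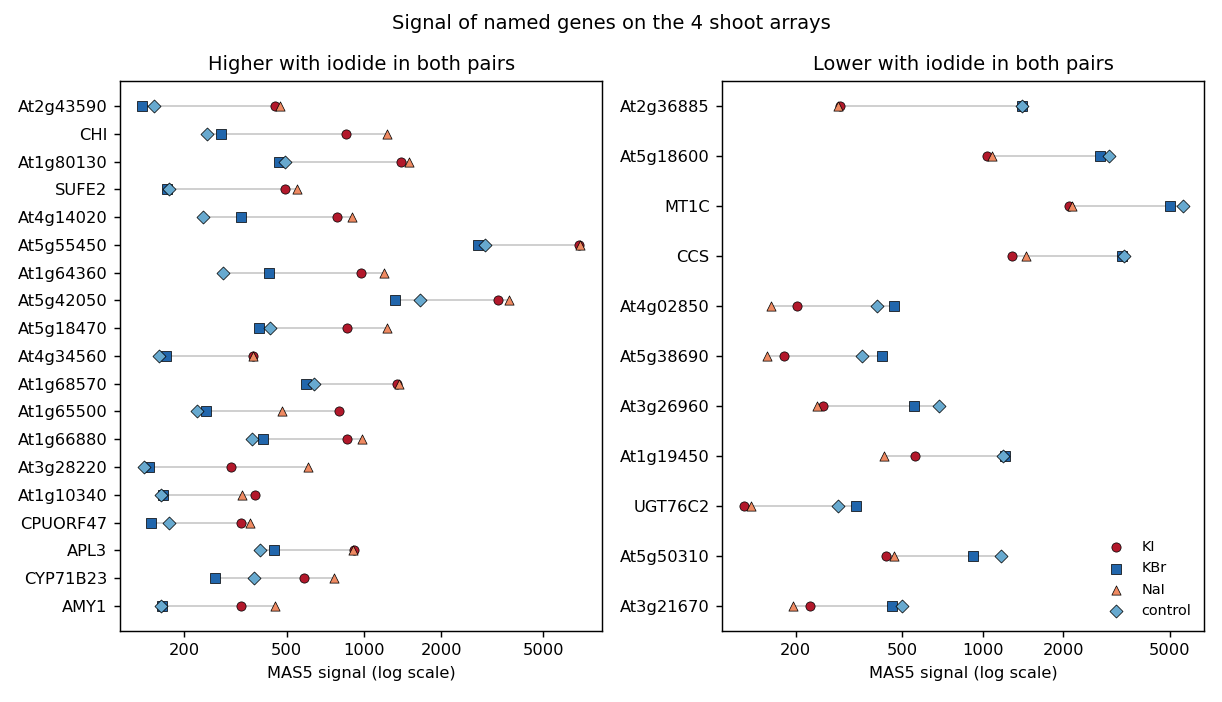
Signals on the 4 shoot arrays (log axis) of the 19 named genes higher (left) and the 11 named genes lower (right) with iodide in both pairs, 1 symbol per array, joined by a line per gene. In the left panel KI and NaI lie to the right of KBr and control for each gene shown, and in the right panel to their left. The genes were chosen for KI against KBr and NaI against control, so this order is largely given by the choice.

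Among the 11 named genes lower with iodide in both pairs, the largest difference was that of At2g36885, annotated as a translation initiation factor. Its signal was 291 in KI against 1399 in KBr shoots and 288 in NaI against 1402 in control shoots, a 4.80-fold and a 4.87-fold difference. The iodide arrays gave almost the same signal, and so did the arrays without iodide. This gene is in the study's list of genes lowered by iodide, and CHI, At3g28220, At1g64360, At4g16260 and At4g01390 are in its list of raised genes. The other measured gene of the raised list, At5g39520, had 241 in KI against 147 in KBr shoots, 1.64-fold and under the limit. It read 568 in NaI against 83.1 in control shoots. Only 6 of the 32 genes of the raised list and 1 of the 15 genes of the lowered list were measured here. Measured means a probe set of their own with a signal of at least 100 on the KI and KBr arrays. The study set KI and NaI each against control and left out genes that responded to KBr. Both lists were chosen on these same arrays, so membership is not independent evidence of the direction. The study also ran qPCR with biological replicates on selected genes, and reads it as bearing out their regulation by iodine. Its primers include At2g36885, and the qPCR values were not used here.

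Metal-binding and redox proteins were the next. MT1C, a metallothionein that binds metals through its cysteines, had 2094 in KI against 4996 in KBr shoots and 2156 in NaI against 5575 in control shoots. CCS, the chaperone that loads copper into superoxide dismutase, had 1290.4 in KI against 3313 in KBr shoots and 1448 in NaI against 3369 in control shoots. At5g18600, which stands in the list of CC-type glutaredoxins used here, had 1039.8 in KI against 2732 in KBr shoots and 1078 in NaI against 2959 in control shoots. All 3 were bright genes with folds between 2.33 and 2.74 in the 2 pairs, and in each both iodide shoots were below both shoots without iodide.

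UGT76C2, a glucosyltransferase that inactivates cytokinins, had 128 in KI against 336 in KBr shoots and 137 in NaI against 287 in control shoots. At3g21670, the NPF6.4 transporter annotated in the study as a nitrate transporter, had 227 in KI against 457 in KBr shoots and 195 in NaI against 499.7 in control shoots. Its 2.01-fold in KI over KBr lay just over the limit. The other named genes were At4g02850, At5g38690, At3g26960, At1g19450 and At5g50310, with log2 ratios of KI over KBr between -1.22 and -1.07.

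A larger group differed 2-fold between KI and KBr and had a weak difference, or none in that direction, in the second pair. Of the 143 higher probe sets 55 had a log2 ratio of NaI over control under 0.5, and of the 80 lower ones 36 were above -0.5. The limit of 0.5 keeps in small differences of the same direction, such as 0.45 for At4g14090. The 51 probe sets higher in both pairs had a median log2 ratio of KBr over control of 0.04, and the 16 lower in both of 0.01. Among the 55 the median was 0.68 for KI over control and -0.45 for KBr over control, and among the 36 it was -0.81 for KI over control and 0.42 for KBr over control. In these groups the KI and KBr arrays lay on opposite sides of the control array, KI further from it. The KI, KBr and control arrays all enter the ratios that chose the groups, the control array through NaI over control. This also holds for the groups found in both pairs, so the medians against control are no separate evidence about any group. Their median mean signal was 212 for the higher and 323 for the lower ones, against 616 and 729.6 for those found in both pairs.

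At5g51890 was the named gene of this group with the highest ratio, at 429.8 in KI and 154 in KBr shoots but 239 in NaI and 270.3 in control shoots. The KBr value alone was low, and the KI value alone was high. NERD, which takes part in RNA-directed DNA methylation, had 298 in KI and 119.8 in KBr shoots against 133 in NaI and 173 in control shoots. At2g25510, annotated as a transmembrane protein, was among the brightest transcripts of the leaf, at 62662 in KI and 28998 in KBr shoots but 44867 in NaI and 39511 in control shoots. Its 2.16-fold in KI over KBr stood beside 1.14-fold in NaI over control. In roots, however, At2g25510 was far higher with iodide in both pairs. It read 2374 in KI against 254 in KBr roots, and 2622 in NaI against 243 in control roots. In the lower direction, RALFL31, of the rapid alkalinization factor peptides, had 192 in KI and 418 in KBr shoots against 344 in NaI and 337 in control shoots.

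Chloroplast-encoded genes were the family best covered, with 66 of 84 measured, and they had a median log2 ratio of 0.06 for KI over KBr and 0.03 for NaI over control. Of the 66, 0 were 2-fold higher and 2 were lower in KI over KBr, beside 1.23% and 0.627% over all probe sets. The lower ones were psbN, for a protein of photosystem II assembly, at 583 in KI and 1476 in KBr shoots against 961 in NaI and 1031 in control shoots, and ycf3, for a photosystem I assembly factor, at 1695 in KI and 3595 in KBr shoots against 2261 in NaI and 2739 in control shoots. In both genes the KI value was the lowest and the KBr value the highest of the 4 shoots, while NaI and control lay between. In NaI over control 1 member was 2-fold lower, petN, for a small subunit of the cytochrome b6f complex, with a log2 ratio of -1.09 beside -0.53 in KI over KBr. The 7 measured nuclear genes of photosystem and light-harvesting proteins, of 38 listed, had 0 past 2-fold and a median of -0.20. LHCB4.3, an antenna protein of photosystem II, had 2790.5 in KI against 4718 in KBr shoots and 3067 in NaI against 5824 in control shoots, a 1.69-fold and a 1.90-fold difference that remained under the limit.

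The phenylpropanoid and flavonoid list had only 5 of 30 genes measured, and its median stands for these 5 alone. Of them 1 passed 2-fold in KI over KBr, beside 1.23% higher over all probe sets. This was At4g14090, at 1048 in KI against 453 in KBr shoots and 896 in NaI against 656 in control shoots, and the list median was 0.88, beside 0.04 over all probe sets. DFR, the dihydroflavonol reductase of anthocyanin synthesis, had 1009 in KI and 548 in KBr shoots, and 927 in NaI and 674 in control shoots. UF3GT, a flavonoid glycosyltransferase, had 519.6 in KI against 265 in KBr shoots but 365 in NaI against 488 in control shoots, and so ran the other way in the second pair. UGT78D2, which adds glucose to flavonoids, had 683 in KI against 414 in KBr shoots and 658 in NaI against 492 in control shoots. HCT, an acyltransferase of the phenylpropanoid pathway, had 1414 in KI against 1716 in KBr shoots and 1352 in NaI against 1859 in control shoots, on the lower side in both pairs. The list median was 0.42 for NaI over control and -0.30 for KBr over control, all 5 members being below the control shoot in the KBr shoot.

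In the lists that follow, the counts stand beside 1.23% of all probe sets higher and 0.627% lower in KI over KBr, and with so few members a single gene exceeds these shares. CC-type glutaredoxins had 4 of 16 members measured, with 0 higher and 1 lower, At5g18600, and a median of -0.61 for KI over KBr and -1.03 for NaI over control. At4g15660 of this list had 133 in KI against 239.8 in KBr shoots and 100.1 in NaI against 394 in control shoots, below the limit in the first pair and 3.93-fold lower in the second. Of the 4 glutaredoxins 3 were below 0 in both pairs, and 1, At2g30540, was above 0 in both. It had 219 in KI against 145 in KBr shoots and 209 in NaI against 120 in control shoots. Among 7 measured of 32 listed expansins, which loosen cell walls, only EXPB1 passed. It read 262 in KI against 129 in KBr shoots but 143 in NaI against 135 in control shoots, and it did not pass after quantile normalization. Of 20 UDP-glycosyltransferases measured (58 listed) 0 were higher and 1, UGT76C2, was lower. Of 10 cytochrome P450 genes measured (225 listed) 1, CYP71B23, was higher. The 5 glutathione S-transferases (48 listed) and the 3 WRKY transcription factors (67 listed) measured had 0 past 2-fold. Their medians were -0.09 and 0.48, and the sign of the first turned with the processing.

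**Figure D4:**
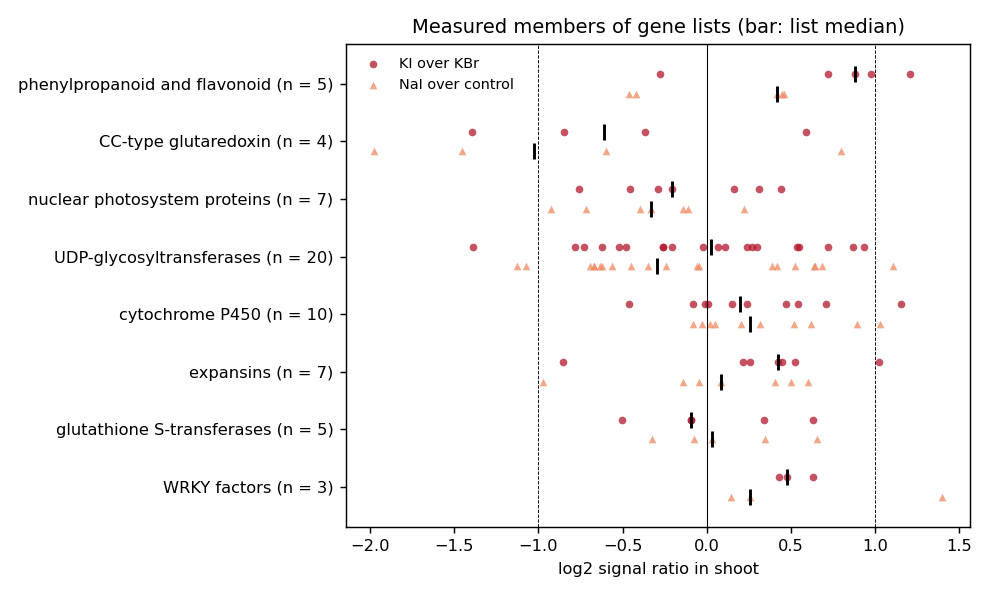
Log2 ratios of the measured members of 8 gene lists in KI over KBr (red circles) and NaI over control (orange triangles), with a black bar at each list median and dashed lines at 2-fold. Flavonoid members lie mostly to the right in KI over KBr, with a median of 0.88, and the UDP-glycosyltransferases are spread around 0.

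Defence hormone lists were thinly covered by probe sets with a single name. The salicylic acid list had 2 of 39 members measured, CHI and SAG101, of which CHI passed. The jasmonate list had 3 measured and 0 past 2-fold, and PDF1.2, a defensin of the jasmonate and ethylene response, read 577 in KI against 446 in KBr shoots and 1163 in NaI against 423 in control shoots. PYE, a transcription factor of iron homeostasis, passed in KI over KBr alone, with 520.1 in KI against 254 in KBr shoots and 499.5 in NaI against 352 in control shoots, and it came under the limit after quantile normalization. WRKY53, a regulator of leaf senescence, had 212 in KI against 158 in KBr shoots and 414 in NaI against 157 in control shoots. For the potassium and sodium transport, nitrate and phosphate starvation lists, 0 members were measured.

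Some genes met the rule in KI over KBr and could not be checked, because a signal in the second pair was under 100. This held for 16 higher probe sets, 8 of them named, and for 1 lower probe set. At4g16260, annotated as a glycosyl hydrolase, had 689.5 in KI against 125 in KBr shoots and 918 in NaI against 63.8 in control shoots, and its 5.51-fold was the highest among named genes. At4g01390, of the TRAF-like family as At3g28220, had 465 in KI against 102 in KBr shoots and 436 in NaI against 75.1 in control shoots. HIS1-3, a linker histone known for its response to water deficit, had 249 in KI against 102 in KBr shoots and 319.5 in NaI against 92.5 in control shoots. In these 3 genes both iodide shoots were above both other shoots.

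Other genes passed in KI over KBr and had a log2 ratio of NaI over control between 0.5 and 1 in size in the same direction. This was the case for 37 higher and 28 lower probe sets. SAPX, the stromal ascorbate peroxidase, had 1098 in KI against 2801 in KBr shoots and 1772 in NaI against 3011 in control shoots, 2.55-fold and 1.70-fold. PDC2, a pyruvate decarboxylase of fermentation, had 3693 in KI against 1780.0 in KBr shoots and 3257 in NaI against 2112 in control shoots. MGL, a methionine gamma-lyase, had 237 in KI against 115 in KBr shoots and 239 in NaI against 127 in control shoots. For each of these 3 genes the iodide shoots lay on 1 side of the shoots without iodide.

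The root arrays of the same salts gave a readout that the shoot rule did not use. Of the 51 probe sets higher in both shoot pairs, 28 had a signal of at least 100 on the root KI and KBr arrays, and 13 of these (46.4%) were 2-fold higher in root KI, against 2.52% of the 10664 probe sets readable in root and on all 4 shoot arrays and 4.04% of the 13294 readable in root. Of the 55 higher in the potassium pair with NaI over control under 0.5, 48 were readable in root and 4 (8.33%) were higher. Among the 16 lower in both pairs 13 were readable and 3 (23.1%) were lower in root KI, against 1.31% of the 10664 and 2.98% of the 13294. Among the 36 lower in the potassium pair with NaI over control above -0.5, 25 were readable and 0 were lower. The root arrays were separate hybridisations, with RNA extracted by another method than that of the rosettes, and the labels do not say whether roots and rosettes came from the same plants.

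CHI had 8356 in KI against 1157 in KBr roots, 2.85 on the log2 scale, SUFE2 had 1822 in KI against 232 in KBr roots, and At1g65500 had 1294 in KI against 156 in KBr roots. These differences were larger in root than in shoot. At5g55450, in contrast, was at 26.5 in KI and 4.18 in KBr roots, and At5g18600 at 3.02 in KI and 14.9 in KBr roots, so that both were leaf transcripts here. At3g21670, lower with iodide in shoots, had 213 in KI against 37.9 in KBr roots and 350.5 in NaI against 44.1 in control roots, the other direction, with the KBr and control roots under 100. CCS had 849 in KI against 1650.2 in KBr roots, a log2 ratio of -0.96 beside -1.36 in shoot.

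**Figure D5:**
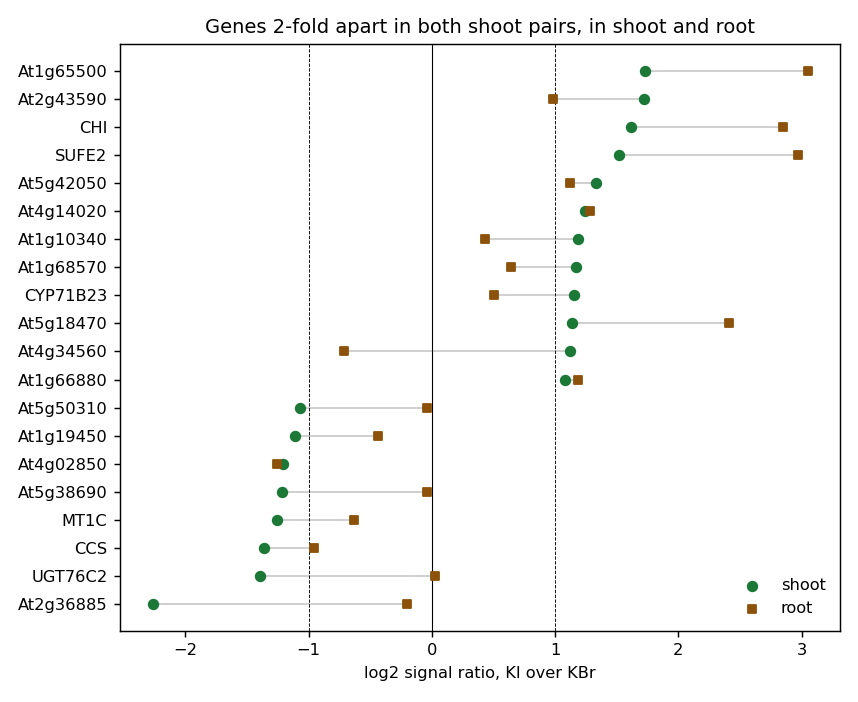
Log2 ratio of KI over KBr in shoot (green circles) and root (brown squares) for the named genes 2-fold apart in both shoot pairs that had a signal of at least 100 on both root arrays, ordered by the shoot ratio. Root ratios of At1g65500, CHI and SUFE2 exceed those of shoot, while At4g34560 has a root ratio of -0.71.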

How the data were processed

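RNA of shoots and roots was hybridised by the authors to ATH1 arrays, 1 per treatment and organ, each from 3 pooled plants. The deposited values are MAS5 signals, an intensity on a linear scale, scaled by the authors so that the 2% trimmed mean of each array is close to 500. No source used here states the MAS5 settings or a genome build. Median signals on the shoot arrays were 187 (KI), 168 (KBr), 179 (NaI) and 171 (control), and 58.5% to 61.0% of probe sets reached 100. With 1 array per group there was no spread from which an SD, an interval or a p-value could be computed.

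Log2 ratios were computed without further normalization for 22746 probe sets, leaving out 64 controls, where the signal reached 100 on both arrays, and a 2-fold limit was used. Gene names came from the platform annotation, which names 13513 probe sets singly, 503 with several genes and 8794 with none, and were updated with a RefSeq gene table. Gene roles are textbook knowledge or the study's annotation.

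The comparison, its members and the 41 gene lists were chosen with earlier results of these data known. Genes named were up to 15 per direction found in both pairs, and up to 8 per direction in KI over KBr with NaI over control under 0.5 in that direction. Named as well were up to 4 members per list past 2-fold or the 2 brightest where none was, together with genes of the study's tables. Chosen with their values in view were also SAPX, PDC2, MGL, HIS1-3, At2g25510, LHCB4.3, DFR, UF3GT, UGT78D2, HCT, petN, At4g15660, At2g30540, PDF1.2 and SAG101. The rule was run on simulated data with less spread than these arrays, and with changes above the limit planted in bright probe sets only. That run therefore gives no error rate for the calls made here. Computations used Python (version 3.11.15) with pandas 2.3.3 and numpy 2.4.6, and figures matplotlib 3.10.9.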

Additional observations from a re-analysis of the deposited data

Results flagged for a closer look

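All results listed here are probe sets without a single gene name in which 2 comparisons ran in opposite directions past 2-fold. None of these differences was tested, because each group is 1 array. The first had a log2 ratio of KI over KBr of -1.53 in shoot and 1.79 in root, with signals of 313 in KI against 899.5 in KBr shoots and of 441 in KI against 128 in KBr roots. NaI over control ran the same ways for it, at 539 in NaI against 917 in control shoots and 501.5 in NaI against 131 in control roots. The second had -1.05 in shoot and 1.45 in root, with 199 in KI against 411 in KBr shoots and 493 in KI against 180.2 in KBr roots. For it NaI over control was smaller in shoot, at 201 in NaI against 245 in control shoots. The third had 1.07 in shoot and -1.21 in root, with 293 in KI against 139 in KBr shoots and 436 in KI against 1008 in KBr roots. Its shoot difference was not met again, at 140.2 in NaI against 151 in control shoots. The last was opposite in the shoot pairs, with a log2 ratio of -1.17 for KI over KBr and 1.15 for NaI over control. Its signals were 546 in KI against 1229 in KBr shoots and 1350.2 in NaI against 607 in control shoots.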

How the results depend on the processing

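Counts are given in the order higher in KI over KBr, lower in KI over KBr, higher in both pairs and lower in both pairs, and stood at 159, 81, 51 and 16. They followed the limit on the log2 ratio, with 1497, 965, 517 and 287 at 0.5, then 22, 8, 12 and 2 at 1.5, and 5, 3, 2 and 2 at 2. With a signal of at least 50 the first 3 were 363, 126 and 91, and with at least 200 the first 2 were 69 and 50. Asking for 100 on the brighter array alone gave 567, 194, 105 and 29. Adding 50 to every signal gave 72, 43 and 33 for the first 3, and counting only probe sets with 1 gene gave 83, 45 and 19. Ratios centred on a running median gave 104 higher and 123 lower, so that the direction with more calls turned, and quantile normalization gave 110 and 109. With the mean of KBr and control as the baseline 105 were higher. Where NaI over control needed only 0.5, 88 were higher and 44 lower in both pairs. The cause of these shifts was not tested, beyond the fewer or more probe sets each limit admits. Of the 51 and 16 probe sets found in both pairs, 40 and 15 kept the call after quantile normalization and 41 and 15 after running-median centring, among them 14 and 13 of the 19 named higher genes and all 11 named lower genes. The r between the pairs lay between 0.38 and 0.56 under its alternatives. Median log2 ratios of KI over KBr shifted by over 0.1 in 4 lists. That of the CC-type glutaredoxins was -0.39 with a signal of 50, -0.88 with 200, -0.50 with 50 added and -0.72 after running-median centring. That of the expansins was 0.26 with a signal of 200, 0.31 with 50 added, 0.26 after quantile normalization and 0.25 after running-median centring. The glutathione S-transferases, at -0.09 in the main setting, had 0.076 with a signal of 50 and 0.023 after quantile normalization, and the cytochrome P450 genes, at 0.20, had 0.010 with a signal of 200, 0.077 after quantile normalization and 0.083 after running-median centring. Ratios of named genes crossed the 2-fold limit in 31 of 336 alternative values and turned sign in 0. AMY1, PYE, EXPB1 and At3g28220 were among those that crossed. No paired analysis was possible because each treatment had 1 array per organ. The single arrays and the low signals near 100 are the main limits.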
